A study of Mus musculus with 2 samples.

Results

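Transcript signal in the normal adult mouse heart was described from the Cy5 channel of 2 two-colour microarrays, which held RNA of non-transgenic (NTG) hearts. The Cy5 channel accounted for 1 of the 3 RNA samples of the series, and for 2 of its 4 channel readings. All 23470 gene probes that neither reading marked as bad were ranked by their mean Cy5 signal, of 23473 gene probes on each array. The Cy3 channels held heart RNA of the transgenic lines L9 and L19, in which the alpha-myosin heavy chain promoter, active in cardiomyocytes, drove miR-143 and miR-145. Those channels were not used here. All mice were 3-month old males, and the transgenic lines had been made in B6D2F1 eggs and backcrossed to C57BL/6J. The NTG RNA carried the same source name on both arrays, so the channel on the L9 array and the channel on the L19 array were 2 readings of 1 control sample. The number of mice behind this RNA is unknown here. The errors given are the SD of the 2 readings, which covers hybridisation and scanning but not differences between mice. Whether the RNA was labelled separately for each array, so that labelling is covered too, is unknown here. No test between groups was possible.

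The heart contracts without rest and covers nearly all of its energy need by oxidative phosphorylation in mitochondria, with fatty acids as its main fuel. Its cardiomyocytes hold sarcomeres built from heart-specific isoforms of myosin, troponin and their partners, many of which have close relatives used in skeletal muscle, in the atria or in the embryo. Fibroblasts, endothelial cells, pericytes and macrophages make up most of the remaining cells. The signal of a probe is a fluorescence value and depends on how well the probe binds as well as on the amount of RNA, so an order of probes is not strictly an order of transcripts. In 184 genes with more than 1 probe above background, the highest and lowest probe of the same gene differed by a median of 3.18-fold, and in 10% of these genes by more than 23.1-fold. Differences between genes are set against this spread below. Only probes above background in both readings entered it, so it does not cover a probe that gives no signal.

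A probe was taken as above background when it exceeded the trimmed mean of the 2736 blank spots by 2 SD, a limit 1.37 (L9 array) and 1.40 units (L19 array) above that mean. By this limit, 20354 of 23470 gene probes (86.7%) were above background in both readings, 1598 in 1 reading and 1518 in neither. The limit was low, because 14 of 96 negative control spots and 79 of 1102 spots without a probe also passed it in both readings. With the mean plus 2 SD of the negative control spots as the limit, 3.07 and 3.17 units above the blank mean, 18145 gene probes (77.3%) passed. Named genes numbered 16388, of which 14523 (88.6%) passed the blank limit in both readings. A signal of a few units is therefore given below as a value and not as expression.

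Signal was concentrated in few probes. The 100 highest probes held 33.4% of the summed signal in each reading, and the 1000 highest held 70.9% (L9 array) and 70.6% (L19 array). Only 57 probes exceeded 10000 units, 661 lay between 1000 and 10000, and 7593 lay between 1 and 10. The highest probe of all had no single gene symbol and stood at the scanner ceiling of 65535 in both readings, so its level is a lower bound. Among the 100 highest probes, 30 had no single symbol and were not described further.

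The highest named gene was Mb, which encodes the oxygen-binding protein myoglobin, with 58932 units (L9 array) and 60168 units (L19 array). Slc25a4, the adenine nucleotide carrier that passes ATP out of mitochondria, followed with 55900 and 58331 units. Myl2, the regulatory myosin light chain of the ventricle, had 48373 and 52473 units. These 3 genes kept the same order in both readings. Fabp3, which carries fatty acids within cardiomyocytes, had 42961 and 45739 units, and Tnnt2, cardiac troponin T, had 36232 and 37877 units. Of the 30 highest named genes, 11 encoded subunits of ATP synthase or of respiratory complexes III and IV, and 7 were on the list of cardiomyocyte markers. The remaining ones included Lpl, the lipase that frees fatty acids from circulating triglycerides (20437 ± 1213, SD, 2 readings), Fth1, the heavy chain of the iron store ferritin (17954 ± 714), and Fhl2, a LIM protein of the Z-disc (15575 ± 2836). The readings of these 30 genes were never more than 1.31-fold apart, and 25 of the 30 were lower on the L9 array.

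**Figure D1:**
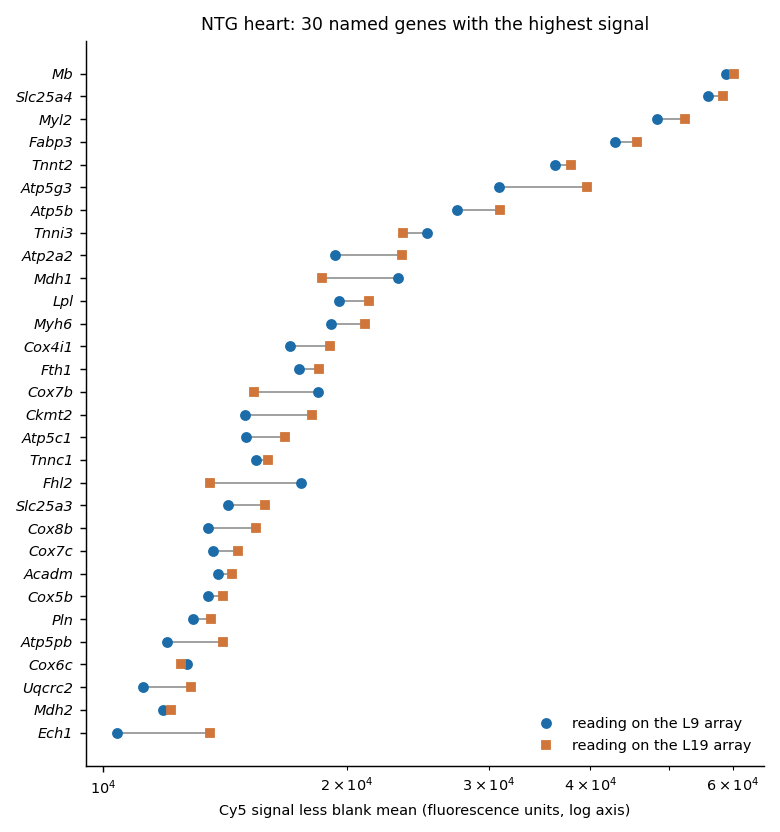
Cy5 signal of the 30 named genes with the highest mean signal in NTG heart, in fluorescence units on a log axis, with the highest gene at the top. Circles are the reading on the L9 array and squares the reading on the L19 array, and the 2 readings of each gene lie within 1.31-fold of each other.

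Genes of the contractile apparatus were among the highest. All 13 cardiomyocyte markers with a named probe were above background, as were 88.6% of all named genes. Of the 13 markers, 11 lay in the top 10% of probes, which held 10.6% of all named genes. Their median signal was 13252 units, against 21.8 units over all named genes. Tnni3, cardiac troponin I, had 25164 and 23474 units, and Tnnc1, the troponin C of heart and slow muscle, had 15467 and 15969 units. Myh6, the alpha-myosin heavy chain whose promoter drove the transgene in the other channel, had 19151 and 21064 units. Ttn, the elastic filament titin, had 4070 and 3728 units, Mybpc3, cardiac myosin-binding protein C, had 3052 and 4272 units, and Myl3, the essential light chain of the ventricle, had 737 and 672 units. The lowest marker was Gata4, a transcription factor of heart development, with 34.4 and 34.1 units.

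Z-disc and costamere genes spread over the whole range. 10 of 14 lay in the top 10% of probes, led by Fhl2 and by Myoz2, a calcineurin-binding protein of the Z-disc (10802 and 10567 units). Csrp3, the muscle LIM protein, had 8697 and 8934 units, and Ankrd1, a stretch-responsive ankyrin repeat protein, had 6694 and 8016 units. Tcap, the titin cap protein telethonin, was not above background in either reading, with -1.16 and 0.37 units. For Tcap, a low transcript and a probe that does not bind cannot be told apart. All 10 genes of the intercalated disc, which joins neighbouring cardiomyocytes, were above background, against 88.6% of all named genes. Gja1, the gap junction protein connexin 43, was highest of the 10 at 2604 and 2278 units.

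Calcium-handling genes ranged from the highest signals to the lowest. Atp2a2, the calcium pump of the sarcoplasmic reticulum, had 19362 and 23406 units, and Pln, phospholamban, which inhibits that pump, had 12915 and 13590 units. Casq2, the calcium store protein of the heart, had 1711 and 1559 units, and Ryr2, the calcium release channel, had 215 and 211 units. Slc8a1, the sodium-calcium exchanger of the heart, had only 2.56 and 5.19 units. All 14 members with a probe were above background by the blank limit, against 88.6% of all named genes. The limit from the negative controls was passed by 13 of the 14, against 80.1% of all named genes.

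Mitochondrial energy genes stood high as whole groups. All 16 ATP synthase genes lay in the top 10% of probes, as did all 17 genes of the tricarboxylic acid cycle and 19 of 20 genes of fatty acid oxidation. The ATP synthase genes had a median of 7185 units and ran down to 832 units for Atp5o, a subunit of the stalk. The 76 genes of ATP synthase and of respiratory complexes I, III and IV, 67 of them in the top 10%, together held 11.3% (L9 array) and 11.7% (L19 array) of the summed signal. Respiratory complex I had 31 of 35 genes in the top 10%, led by Ndufa12, an accessory subunit (9738 and 12574 units). Single members of these families were low, such as Ndufa3 with 7.66 and 7.61 units and Uqcrq with 3.69 and 1.56 units, both structural subunits.

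In the tricarboxylic acid cycle, Mdh2, mitochondrial malate dehydrogenase, was highest with 11856 and 12133 units, and Suclg2, the GTP-forming succinate-CoA ligase subunit, was lowest with 925 and 800 units. In fatty acid oxidation, Acadm, the medium-chain acyl-CoA dehydrogenase, had 13884 and 14417 units, and Cd36, the fatty acid transporter of the cell surface, had 6890.5 and 7715 units. The exception to the top 10% was Slc27a1, a fatty acid transport protein, with 160 and 169 units. Ketone use was covered by 4 genes, all in the top 10%, with Oxct1, the enzyme that activates ketone bodies, at 4642 and 7105 units. 11 of 13 glycolytic genes lay in the top 10%, but Gapdh, often used as a reference gene, had 159 and 181 units and Hk1, a hexokinase, had 65.3 and 71.9 units.

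Protein-making and protein-degrading genes formed a second layer of signal. Cytosolic ribosomal proteins had a median of 2148 units, and 38 of 57 lay in the top 10%. Their range was wide, with 7353 and 7271 units for Rpl41 and 1.98 and 2.66 units for Rps12. Mitochondrial ribosomal proteins had a median of 471 units, with 60 of 77 in the top 10%, and proteasome genes a median of 714 units, with 28 of 37. Antioxidant enzymes were led by Sod2, the superoxide dismutase of mitochondria (6736 and 7066 units), while Gpx1, a glutathione peroxidase, was in neither reading above background (0.67 and 0.57 units). For Gpx1, as for Tcap, a low transcript and a probe that does not bind cannot be told apart.

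**Figure D2:**
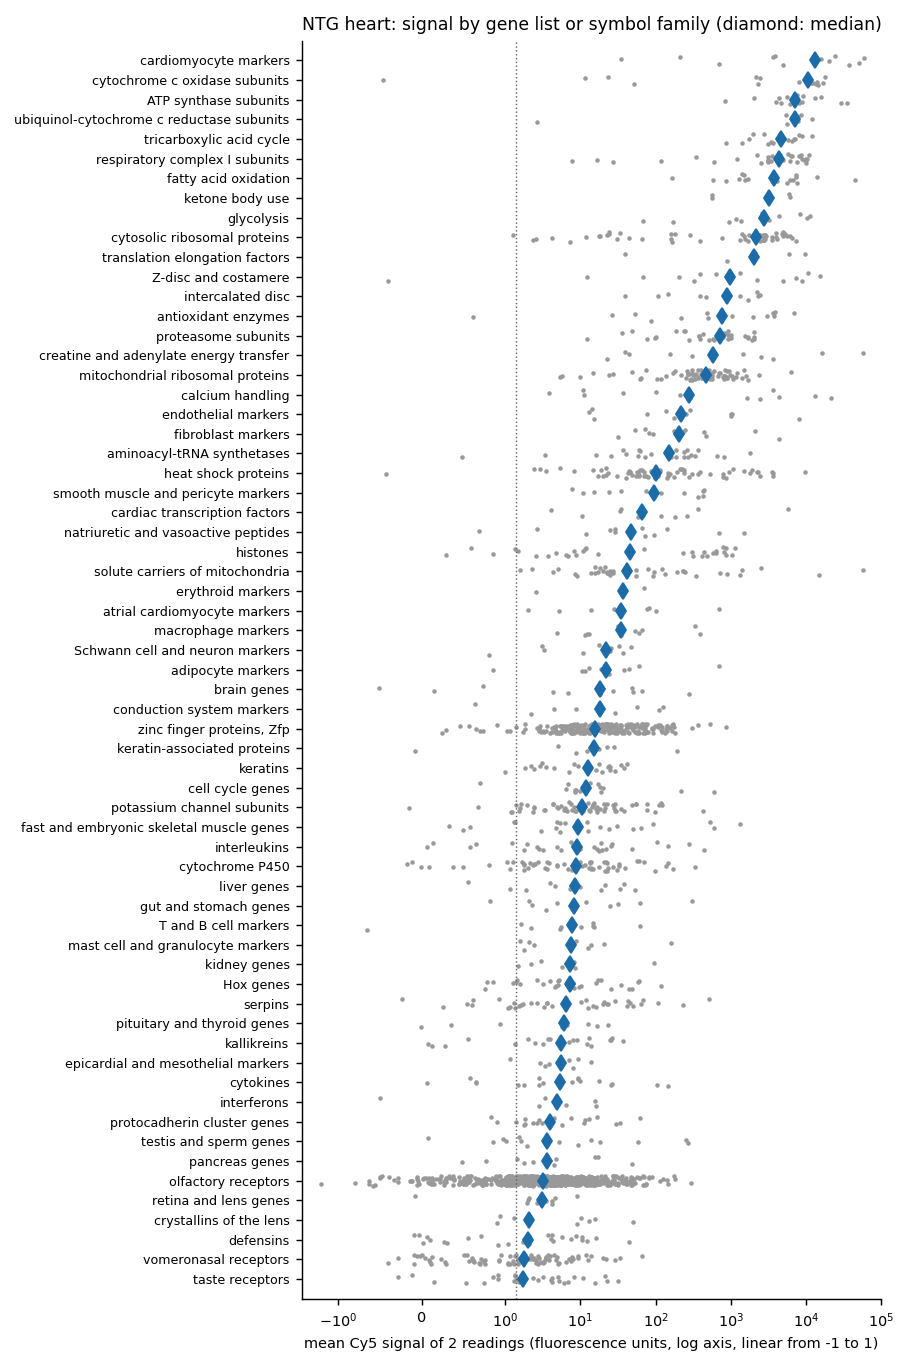
Mean Cy5 signal of the 2 readings in NTG heart for each gene (grey points) of 63 gene lists and symbol families, in fluorescence units on a log axis that is linear between -1 and 1, with the median of each as a diamond and the blank limit as a dotted line. Cardiomyocyte markers have the highest median, 13252 units, and taste receptors the lowest, 1.73 units.

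Isoform choice was read in 43 families in which the member listed for heart or striated muscle and at least 1 relative had a named probe. A listed member, such as Cox4i1, need not be specific to muscle. The heart or muscle member had the highest signal in 37 of the 43 families. This count takes a lead of any size over the highest relative, down to 1.19-fold for Myl3 over Myl1 and 1.20-fold for Pdk4 over Pdk2. Over all 81 pairs, the heart or muscle member was higher in 73. In 44 of those it was higher by more than the 23.1-fold that separated probes of 1 gene in the most discordant 10% of genes. It was lower in 8 pairs, never by more than that. In 8 pairs, all of them among the 44, the relative was not above background in at least 1 reading, so this spread does not cover them. In others of the 44, the relative (Ryr1, Jph3, Slc2a2, Eno2, Pklr, Gja5 or Nppc) did not pass the limit from the negative controls in both readings.

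Myh6 had 20107 ± 1353 units, against 299.6 ± 0.8 for Myh7, the beta-myosin heavy chain of the fetal ventricle and slow muscle, a difference of 6.07 ± 0.10 on the log2 scale. Myh8, the perinatal skeletal myosin, had a higher signal than Myh7, at 534 ± 11 units. Myh3, the embryonic skeletal myosin, was in neither reading above background. With Myh3 set to the lowest signal above background, 1.38 and 1.40 units, Myh6 was 14428-fold above it. Such a fold depends on the limit, and the higher limit from the negative controls would give a smaller one. Myl2 had 50423 ± 2899 units, against 13.9 ± 1.9 for the atrial light chain Myl7. Tnni3 had 24319 ± 1195 units, against 18.4 ± 1.8 for Tnni1 of slow muscle and 30.9 ± 1.2 for Tnni2 of fast muscle. Atp2a2 had 21384 ± 2859 units, and Atp2a1, the pump of fast muscle, was in neither reading above background. With Atp2a1 set to the same lowest signal, Atp2a2 was 15292-fold above it. The differences of Myh6, Myl2, Tnni3 and Atp2a2 from these relatives were past the 23.1-fold spread of probes within a gene, while Myh8 and Myh7 differed by less than that. For Myh3 and Atp2a1, a low transcript and a probe that does not bind cannot be told apart by this spread.

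Among enzymes and carriers of energy metabolism, the heart or muscle member was likewise higher in most families. Ckmt2, the mitochondrial creatine kinase of striated muscle, had 16547 ± 2205 units, while Ckmt1, its relative in other tissues, was not above background. With Ckmt1 set to the lowest signal above background, Ckmt2 was 11833-fold above it, a fold that depends on this limit. Slc25a4 had 57115 ± 1719 units, against 2537 ± 36 for Slc25a5, the carrier of most other tissues, a 22.5-fold difference. Cox6a2 had 10912 ± 2151 units, against 2298 ± 305 for the widely expressed Cox6a1, and Cox8b had 14467 ± 1399 units, against 2190 ± 92 for Cox8a. These oxidase pairs differed by 4.72-fold and 6.59-fold, within the spread of probes of 1 gene. Hk2, the hexokinase of muscle and heart, had 1350 ± 95 units, against 68.6 ± 4.7 for Hk1, 19.7-fold apart. The differences within the Slc25a4 and Hk2 pairs also lay inside the 23.1-fold spread. Slc2a4, the insulin-responsive glucose transporter, had 1893 ± 10 units, against 36.8 ± 2.0 for Slc2a1, which supplies glucose in most cells, a difference of 51.5-fold and past that spread.

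In 6 families a relative had the higher signal. Tpm1, the tropomyosin of heart muscle, had 197.9 ± 15.7 units, against 236 ± 20 for Tpm3, and Pygm, the glycogen phosphorylase of muscle, had 1227 ± 46 units, against 2383 ± 5 for Pygb of brain. Eef1a2, the elongation factor of muscle and neurons, had 2066 ± 3 units, against 6011 ± 502 for the ubiquitous Eef1a1. Nppa, atrial natriuretic peptide, had 698 ± 42 units, against 1515 ± 3 for Nppb, B-type natriuretic peptide. Acacb, the acetyl-CoA carboxylase of muscle, had 20.4 ± 0.7 units, against 36.6 ± 0.6 for Acaca. Slc8a1 had 3.87 ± 1.86 units, against 20.5 ± 4.3 for Slc8a3. All 6 differences were smaller than the 23.1-fold spread of probes within a gene.

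**Figure D3:**
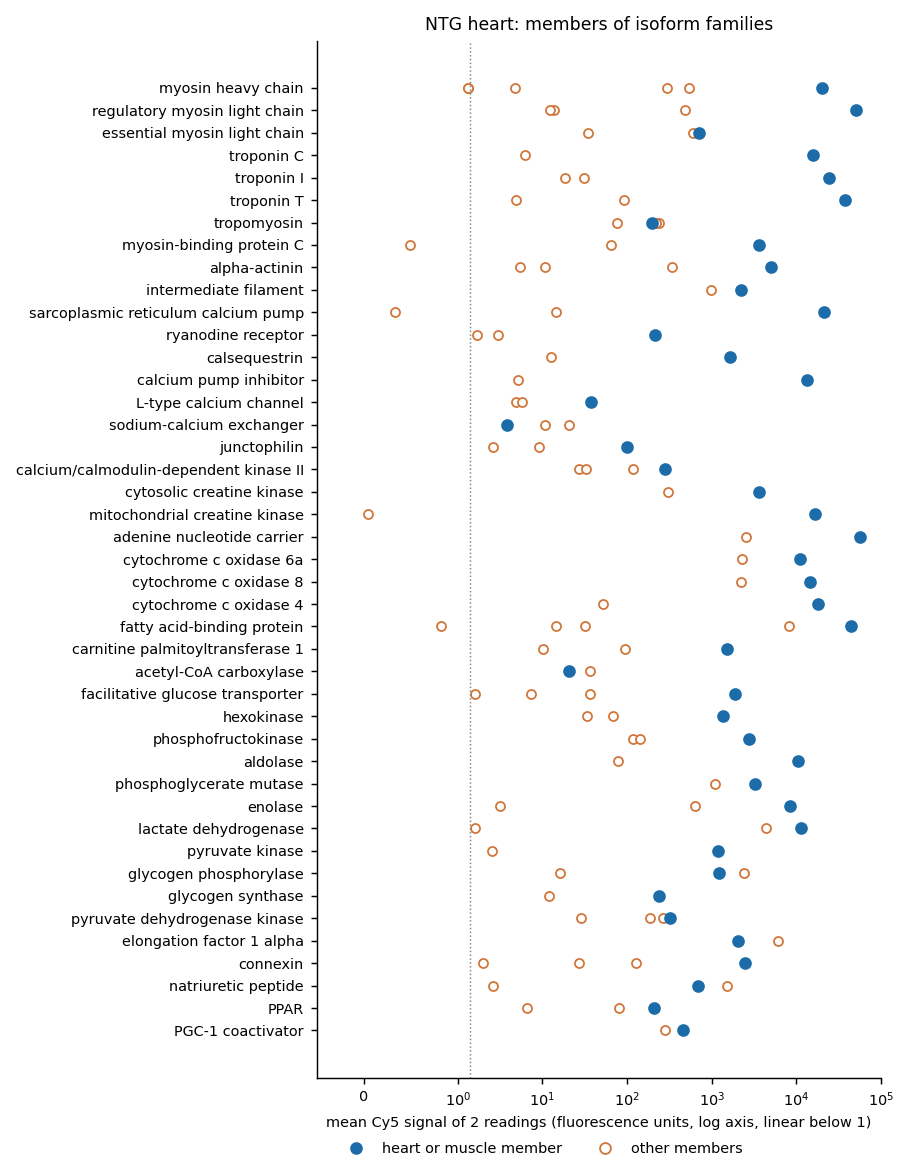
Mean Cy5 signal of the 2 readings in NTG heart for 43 isoform families, in fluorescence units on a log axis that is linear below 1, with the heart or muscle member as a filled circle and its relatives as open circles. The dotted line is the blank limit, and the filled circle is farthest right in 37 families, by as little as 1.19-fold.

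The median signals of the marker lists of other heart cells lay far below the median of the cardiomyocyte list. Single markers overlapped, as those of cardiomyocytes ran down to 34.2 units. In whole tissue, fewer cells of a type, less RNA per cell and weaker binding of a probe cannot be told apart. All 12 fibroblast markers were above background with a median of 204 units, led by Gsn, an actin-severing protein (3816 and 4875 units), and Dcn, the matrix proteoglycan decorin (1742 and 2495 units). All 12 endothelial markers were above background with a median of 215 units. As 88.6% of all named genes passed that limit, such counts are close to the general share. Fabp4, a fatty acid-binding protein of capillary endothelium and fat cells, was highest at 8228 and 8089 units. The 10 adipocyte markers had a median of 21.7 units, close to that of all named genes, with Cidea, a lipid droplet protein, highest at 659 and 755 units and Adipoq, the hormone of fat cells, at 12.9 and 12.9 units. Smooth muscle and pericyte markers had a median of 95.4 units and macrophage markers 34.2 units, with C1qa, a complement component made by macrophages, at 381 and 399 units.

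Markers of T and B cells had a median of 7.77 units, and those of mast cells and granulocytes 7.54 units. All 11 mast cell and granulocyte markers with a probe passed the blank limit, and 7 of them (63.6%) passed the limit from the negative controls, against 80.1% of all named genes. Atrial markers had a median of 34.6 units, with Myl4, the atrial light chain, at 33.4 and 35.8 units. The 9 conduction system markers had a median of 18.2 units, and 7 of them passed the limit from the negative controls. Gjc1, connexin 45, was highest of these at 120.3 and 133 units, Hcn4, the pacemaker channel, had 2.61 and 1.79 units, and Isl1, a transcription factor of the sinus node, was in neither reading above background.

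The lists of other organs had medians below the 21.8 units of all named genes, by differing amounts. Brain genes came closest with a median of 18.4 units, and 8 of 11 passed the limit from the negative controls, as did 10 of 13 liver genes (76.9%), against 80.1% of all named genes. Liver genes had a median of 8.42 units, with Alb, albumin, at 3.48 and 4.40 units, and pancreas genes a median of 3.55 units, with 5 of 11 past that limit. Genes of fast and embryonic skeletal muscle had a median of 9.32 units, with 17 of 22 (77.3%) above background, against 88.6% of all named genes. Yet 3 of the 22 (13.6%) lay in the top 10% of probes, against 10.6% of all named genes. These were Acta1, Myl1 and Myh8, with means of 1318, 594 and 534 units. Some genes of other organs also stood above the median of their list. Muc2, the mucin of the gut, had 305 and 310 units, Nrgn, the neuronal protein neurogranin, had 269 and 284 units, and Tnp2 and Ddx4, both of germ cells, had 268 and 269 units and 255 and 261 units. In each of these 4 genes the readings lay close together. Whether their signal came from the named transcript was not tested.

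Receptors of the senses were among the lowest families. Olfactory receptors had a median of 3.18 units, with 422 of 662 above the blank limit in both readings and 306 above the limit from the negative controls. Vomeronasal receptors passed the blank limit in 43 of 88 genes, taste receptors in 17 of 33 and defensins, antimicrobial peptides, in 17 of 30. These shares lay below the 88.6% of all named genes. Olfr1509, an olfactory receptor, lay in the top 10% of probes, with 285 and 313 units. Cytokines had a median of 5.42 units, with 13 of 18 (72.2%) above background in both readings, against 88.6% of all named genes. Il12b was the highest of the 18 at 147 and 149 units, and Il6, Tnf, Il9 and Il4 were not above background in either reading.

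The 2 readings gave nearly the same order of probes. Over the 20354 probes above background in both, the log2 signals correlated with a Pearson r of 0.992 and a Spearman rho of 0.992, a description across probes that share 1 RNA sample. The readings shared 9 of their 10 highest probes, 95 of their 100 highest and 959 of their 1000 highest. Signals were lower on the L9 array in 72.5% of probes, with a median difference of -0.12 on the log2 scale (L9 array minus L19 array). The SD of this difference was 0.32, and 1811 probes (8.9%) differed by more than 1.5-fold.

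Agreement depended on signal. In the lowest 10% of these probes, up to 3.55 units, the SD was 0.58 and 663 of 2036 probes differed by more than 1.5-fold. In the highest 10%, above 314 units, the SD was 0.18 and 23 of 2036 did. Agreement also depended on the position on the array. The median difference was 0.15 in block 1 and -0.53 in block 24 of the 24 blocks, with 19 blocks below 0. Block 24 held 315 of the 1811 discordant probes. The 48 positive control spots had block medians between -0.12 and 0.14, and none of them lay in block 24.

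**Figure D4:**
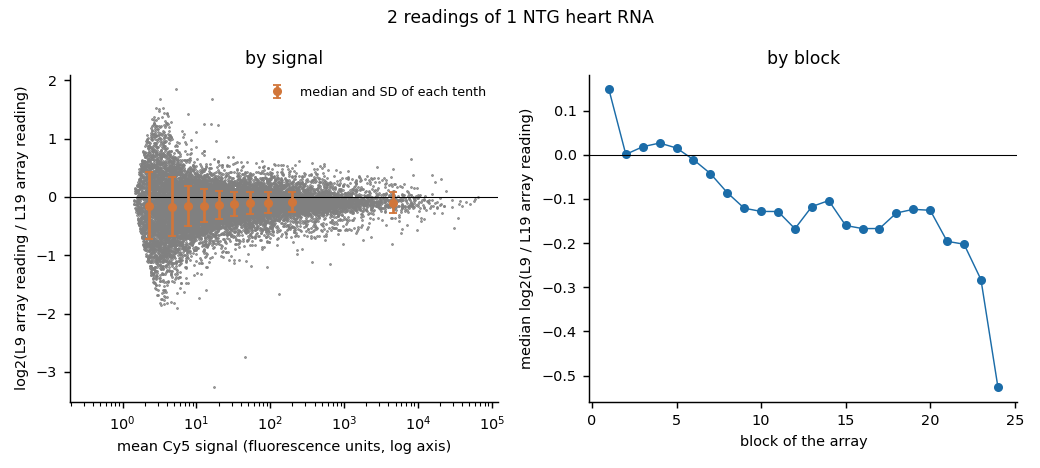
Log2 ratio of the L9 array reading to the L19 array reading of the NTG heart RNA for probes above background in both, against mean Cy5 signal in fluorescence units on a log axis (left, with the median and SD of each 10% of probes) and as the median of each of the 24 array blocks (right). The SD is 0.58 in the lowest 10% and 0.18 in the highest, and the block median runs between 0.15 and -0.53.

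The named genes with the largest differences had low signals. Dnajb13, a cochaperone of sperm, had 3.30 (L9 array) and 31.6 units (L19 array), and Acp5, an acid phosphatase of osteoclasts, had 2.31 and 8.66 units. Kcnk1, Sult4a1 and Mlana followed in this direction. In the other direction, Dnaaf6, an assembly factor of cilia, had 8.25 and 2.30 units and Serpina3n, a protease inhibitor, had 24.99 and 7.77 units, followed by Grip1, Kcnab3 and Serpina9. Among genes of high signal, picked after their values were seen, Idh2, the NADP-dependent isocitrate dehydrogenase of mitochondria, had 9767 and 6243 units. Gmfb, which lay in block 24, had 62.9 and 200.4 units.

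Promoters were set beside the signal ranks to see what abundant genes shared in sequence. RefSeq windows of 300 bases, from 250 before to 50 after the start (build GRCm38.p6), were matched by symbol for the 10712 named genes with a single listed window. CpG dinucleotides, which vertebrate genomes have lost outside regions called CpG islands, had a median observed to expected ratio of 0.80 in the 100 highest named genes and 0.78 in those ranked 2001 to 6000. The ratio was 0.57 in lower ranks and 0.24 in genes above background in neither reading. CGGAAG, a sequence that occurs in sites for ETS factors, was found on either strand in 34.2% of windows in the 100 highest genes. The share was 6.49% in genes in neither reading and 24.3% of all windows. TATAAA, also on either strand, was found in 5.48% of windows in the 100 highest genes (4 of 73), 13.3% in ranks 101 to 500, 21.8% in neither reading and 11.5% of all, with no steady order over the ranks. CGGAAG itself holds a CpG, so its share cannot be read apart from the CpG ratio. GGAAGT, another motif counted, overlaps CGGAAG but lacks the CpG. It was found in 27.4% of windows in the 100 highest genes, 18.2% in neither reading and 25.7% of all, a smaller contrast. Olfactory receptors, a family of low signal, had 557 windows with a median CpG ratio of 0.11, CGGAAG in 1.26% and TATAAA in 38.4%. These TATAAA shares count the whole window. At bases -40 to -16 on the gene's strand, TATAAA was in 0 of 73 windows in the 100 highest genes, 5.52% in neither reading and 2.73% of all. Olfactory receptors had it there in 9 of 557 windows (1.62%). The classes were not computed without this family. Motif shares count letters in a window and not bound sites.

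**Figure D5:**
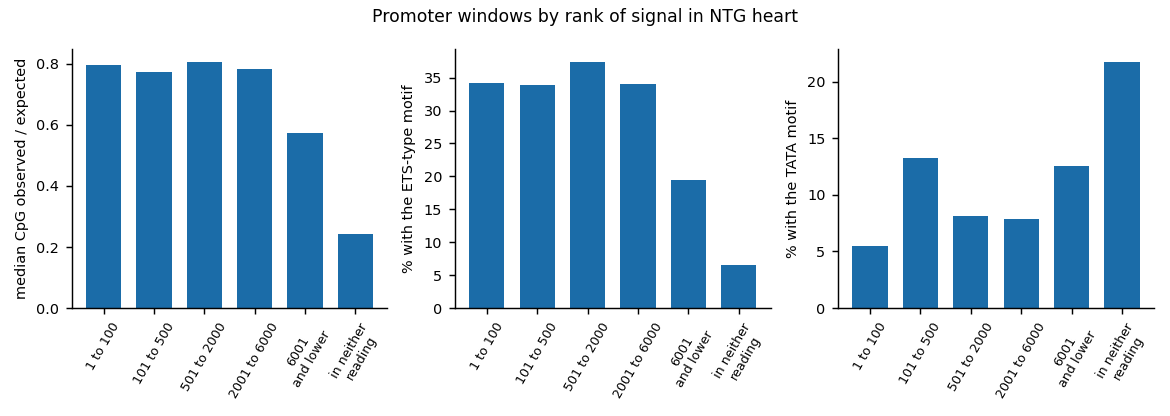
Median CpG observed to expected ratio (left), percent of windows with the ETS-type motif (middle) and percent with the TATA motif (right) in 300-base RefSeq promoter windows, by rank of the gene's Cy5 signal in NTG heart. The motifs are CGGAAG and TATAAA, each counted anywhere in the window on either strand. The CpG ratio is between 0.77 and 0.81 in the 4 highest classes and 0.24 in genes above background in neither reading.

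Groups of abundant genes differed in these features. The 9 cardiomyocyte markers with a single window had a median CpG ratio of 0.11, against 0.67 over all windows, and CGGAAG in 1 of 9. The 11 ATP synthase genes had a median ratio of 0.74 and CGGAAG in 7 of 11, and the 35 cytosolic ribosomal protein genes a ratio of 0.86 and CGGAAG in 28 of 35. CGGAAG was in 24.3% of all windows. Its share was also higher in genes of mitochondrial ribosomal proteins (37 of 65), the tricarboxylic acid cycle (8 of 14) and cytochrome c oxidase (6 of 12). It was lower in genes of complex I (6 of 29) and of fatty acid oxidation (3 of 15). The 120 bases before the start are shown for the heart isoform Cox8b and the widely expressed Cox8a, for 2 sarcomere genes and for the highest mitochondrial gene, in lower case with each CpG in capitals, 5′ to 3′ on the gene's strand.
Cox8b (chr7:140900447-140900566, minus strand): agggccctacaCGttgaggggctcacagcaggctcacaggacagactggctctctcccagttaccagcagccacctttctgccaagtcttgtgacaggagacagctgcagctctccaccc
Cox8a (chr19:7217617-7217736, minus strand): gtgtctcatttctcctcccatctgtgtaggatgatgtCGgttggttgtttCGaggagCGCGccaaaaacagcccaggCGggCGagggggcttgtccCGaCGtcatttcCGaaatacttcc
Tnni3 (chr7:4522529-4522648, minus strand): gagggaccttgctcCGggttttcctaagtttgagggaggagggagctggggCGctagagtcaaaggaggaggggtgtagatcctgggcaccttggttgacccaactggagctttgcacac
Myh6 (chr14:54966608-54966727, minus strand): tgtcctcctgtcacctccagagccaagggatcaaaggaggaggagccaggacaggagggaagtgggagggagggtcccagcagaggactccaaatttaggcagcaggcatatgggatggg
Slc25a4 (chr8:46211063-46211182, minus strand): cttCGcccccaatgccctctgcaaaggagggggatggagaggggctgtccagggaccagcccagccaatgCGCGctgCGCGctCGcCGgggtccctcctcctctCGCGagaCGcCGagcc
Cox8b held 1 CpG in these bases and Cox8a 9, while Tnni3 held 2, Myh6 none and Slc25a4 11. All 5 genes were above background in both readings, and the 3 with a CpG ratio under 0.25 over the whole window, Cox8b, Tnni3 and Myh6, had signals of 14467, 24319 and 20107 units.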

How the data were processed

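The authors extracted total heart RNA, amplified it with amino allyl labelling (Amino Allyl MessageAmp II), hybridised it to Toray 3D-Gene Mouse Oligo chip 24 arrays and read the spots with the 3D-Gene Scanner and Extraction software, with no version stated in the sources used here. The deposited values are the spot intensity of each channel, neither background-corrected nor normalized, per the file headers. The deposited table of processed ratios was not used. Here, the mean of the blank spots, trimmed by 5% at each end, was subtracted from the Cy5 spot median, and 1 gene probe spotted more than once was averaged. Local background was not subtracted, since its log2 value correlated with that of the spot (r of 0.942 and 0.960). Spots marked bad (2 gene spots of the L9 array, 1 of the other) were left out. Both arrays had 27456 spots, and their number limits the precision.

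Gene symbols of the platform matched the RefSeq table (GRCm38.p6) directly for 12622 probes and through a unique synonym for 3947, and 62 matched neither and stayed as they were. 6841 gene probes had no single symbol. A gene was represented by its highest probe. Isoform families, 36 gene lists and 27 symbol families were chosen with earlier results of these data known. After values had been seen, the interferon family was narrowed because it had caught receptors, and a family of sperm and prostate proteins was dropped. The rule for named genes took the 30 highest, all isoform family members, up to 4 members at each end of a list or family, the 5 largest differences in each direction and the highest genes of other organs. Of the 10 promoter motifs counted, TATAAA was planned and the others, with the rank classes, were chosen after values were seen. A pair of longer motifs was looked at and dropped. Comparison of protein sequences was planned but not run. The steps were tested on simulated data. Signals, ranks and promoters were computed in Python 3.11.15 with pandas 2.3.3, and the normexp, quantile and loess alternatives with limma 3.58.1 in R 4.3.3.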

Additional observations from a re-analysis of the deposited data

How the results depend on the processing

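No paired analysis was possible because the results come from no test and the 2 readings are of 1 sample. The number of gene probes above background in both readings was 20354, and ran between 18145 and 19727 with a limit of 3 SD, untrimmed blanks, the 99th percentile of the blanks or, chosen after seeing the data, the negative controls. With a single reading it was 20990 to 21316. Of the 100 highest probes, 79 to 100 were kept under the other scalings and background corrections, and 97 to 98 with a single reading. The count of 37 isoform families was the same in all 6 alternatives, and none of the 73 pairs above background in both members changed direction, but 131 of their 438 log2 differences under these alternatives moved by more than the SD of the 2 readings. The spread between readings did depend on the processing. With normexp correction and an offset of 50, the SD of the log2 difference was 0.096, against 0.32, and 26 probes, against 1811, differed by more than 1.5-fold. In the upper 50% of signal the SD was 0.187 and the count 169. With the median of each block removed, chosen after seeing the data, the SD was 0.298 and the count 1344. Of 378 counts of list members over 63 lists and families, 9 moved by more than 1.5 times, among them vomeronasal receptors (23, against 43), defensins (11, against 17) and protocadherin cluster genes (11, against 18) with the negative control limit. Array signal limits what low values can show, as the readings of probes below 6.10 units differed by more than 1.5-fold in 25.7% of cases or more.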
